A study of Mus musculus with 12 samples.

Results

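The genes described here encode the SR proteins, the heterogeneous nuclear ribonucleoproteins (hnRNPs) and their close partners in splice-site choice. They were taken by symbol from 6 deposited ac4C peak lists: Srsf followed by digits, names starting with Hnrnp, and Sfpq, Nono, Pspc1, Pcbp1, Pcbp2, Ptbp1, Ptbp3, Tra2a, Tra2b, U2af1 and U2af2, without pseudogenes. A gene counted when the centre of a peak lay inside it. By this rule 28 splicing factor genes had a peak in at least 1 list, of 1779 protein-coding genes with a peak. The RefSeq gene table names 42 protein-coding genes with these symbols, so 14 had no peak in the lists used here. The share of all annotated protein-coding genes with a peak was not computed. This count and those by family below therefore have no background beside them. The study followed mouse peritoneal macrophages, phagocytes of the abdominal cavity, kept with interferon-γ (IFN-γ), a T and NK cell cytokine that activates macrophages, for 0, 24 or 48 h. Its 12 samples form 6 groups of 2, with RNA pulled down through N4-acetylcytidine (ac4C) and total RNA at each time. All groups carry the IFN-γ label, that of 0 h included, and no group was kept for 24 h or 48 h without the cytokine, so the cytokine and the time in culture cannot be told apart. The labels give no strain, age or number of animals and do not say whether those of a group came from different animals or cultures, so any spread between lists may be technical.

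N4-acetylcytidine is a cytidine that the acetyltransferase NAT10 has acetylated, and it has been described in tRNA, ribosomal RNA and messenger RNA. SR proteins bind exonic enhancers through RNA recognition motifs and recruit the spliceosome through domains rich in arginine and serine. The hnRNPs coat nascent transcripts and often act against them, silencing exons, and several also steer the export, stability and translation of messenger RNA. Many genes of both families regulate their own transcripts by alternative splicing, which makes the place of a mark along these transcripts of interest.

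A peak is a region where the authors' peak caller found more pull-down than background, and its fold enrichment, p and q are the authors' values, which serve here to describe and rank peaks within a list. The lists name a time and not a sample, and each time has a list 1 and a list 2. The 0 h lists had 1151 and 946 peaks, the 24 h lists 725 and 646, and the 48 h lists 674 and 611. The depth behind them also differed: the input coverage recovered from fold and p was 100% and 91.4% of the deepest in the 0 h lists, 73.7% and 80.8% in the 24 h lists and 57.2% and 44.6% in the 48 h lists. Input coverage here means the peak caller's background, and which library was the control of each list is not stated. Pull-down coverage, on the same scale, was 91.5% and 78.1% in the 0 h lists, 100% and 97.9% in the 24 h lists, and 77.9% and 68.6% in the 48 h lists. Of 12 macrophage markers 4 had a peak (Itgam, Lyz2, Mrc1 and Cebpb), while Adgre1 and Csf1r had none in the lists used here. Of 5 mesothelial markers Wt1 had a peak in 1 list, and the B cell, T cell, neutrophil and mast cell markers had none. The absence of a peak says nothing of a transcript's level, because peaks under the caller's threshold are unlisted. In bulk samples fewer cells of a type and less RNA per cell cannot be told apart.

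Over all peaks, fewer splicing factor genes had a peak after 0 h. They numbered 20 and 19 in the 0 h lists, 9 and 6 in the 24 h lists and 10 and 11 in the 48 h lists, with means of 19.5 ± 0.707, 7.5 ± 2.12 and 10.5 ± 0.707 (SD, n = 2 lists each). The later lists did not overlap with those of 0 h in this number. Nor did they in all protein-coding genes with a peak. These numbered 825 and 702 in the 0 h lists, 531 and 474 in the 24 h lists and 519 and 463 in the 48 h lists. Among peaks with a fold of 4 or more the means were 4.5, 2.5 and 4.5 genes per list at 0, 24 and 48 h, so the lower number at 48 h was absent there. All lists shrank, so the same genes were also set against the protein-coding genes of each list: they made up 2.42% and 2.71% of these in the 0 h lists, 1.69% and 1.27% in the 24 h lists, and 1.93% and 2.38% in the 48 h lists. The share in 48 h list 2 lay just under the lower 0 h value. No test was made of these counts, and 2 lists against 2 could not give an exact two-sided permutation p under 0.33. The 0 h lists each held 6 SR protein genes, the 24 h lists 3 and 2, and the 48 h lists 4 each. For hnRNP genes these numbers were 9 in each 0 h list, 5 and 4 in the 24 h lists, and 4 and 5 in the 48 h lists. No share of the list was computed for either family, so a fall beyond that of all genes is not shown.

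**Figure D1:**
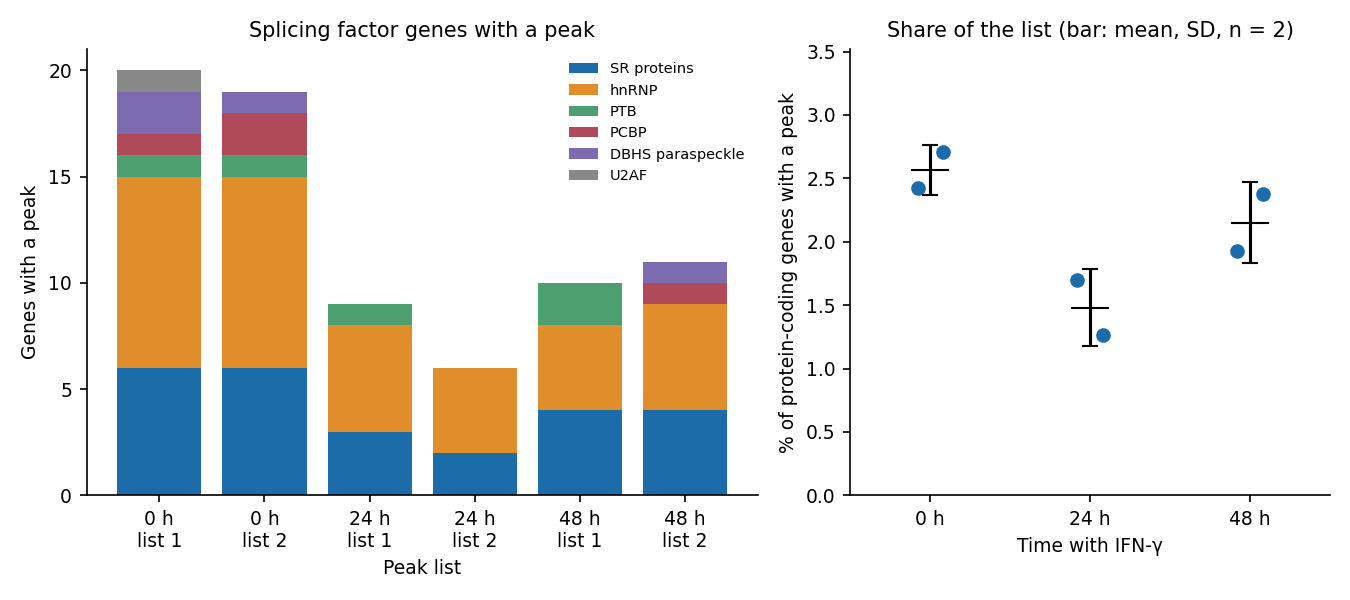
Left, splicing factor genes with a peak in each of the 6 lists, stacked by role (vertical axis, genes). Right, the same genes as a percentage of all protein-coding genes with a peak, with a point for each list and the mean and SD (n = 2) for each time; the shares were 2.42% and 2.71% in the 0 h lists, 1.69% and 1.27% in the 24 h lists and 1.93% and 2.38% in the 48 h lists.

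Both 0 h lists shared 16 splicing factor genes, of which 8 lacked a peak in either 24 h list, a share of 50.0% beside 41.4% for all protein-coding genes. Those 8 were Hnrnpab, Hnrnph1, Hnrnpl, Pcbp2, Sfpq, Srsf1, Srsf2 and Srsf3. At 48 h 7 of the 16 lacked one in either list, 43.8% beside 37.9%. Those 7 were Hnrnpa2b1, Hnrnph1, Hnrnpl, Sfpq, Srsf2, Srsf3 and Srsf5. Both comparisons share the 0 h lists. The 5 genes absent from all 4 later lists were Sfpq, Hnrnpl, Srsf3, Hnrnph1 and Srsf2, 31.2% of the 16, beside 27.2% of protein-coding genes. These shares are near those of all genes. At a fold enrichment of 4 or more the count at 24 h was 1 and that at 48 h was 1, in both cases Sfpq. The genes called also differed between settings. Of 8 settings, Sfpq was absent at both later times in 8, Srsf3 in 7, Hnrnpl in 6, Hnrnph1 in 4 and Srsf2 in 3, and the call of Hnrnpab at 24 h was made in 3. The main setting and the other gene assignments gave the same calls, so 3 was the lowest count possible for these genes. Srsf2 and Hnrnpab were thus called in no setting that limited q, fold, list length or input coverage. Srsf5, a gene present in 24 h list 1 with a q of 1, was called at both times in 3 settings, matched input coverage among them, and Ptbp1 in the 2 settings with a limit on q. At a q of 1e-05 or less Hnrnpk, Srsf1 and Srsf6 were also called absent at both later times. Each had later peaks at a higher q, Hnrnpk in all 4 later lists and Srsf1 in both 48 h lists.

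Over all peaks no splicing factor gene was gained against 0 h, while Hnrnpd was gained at 24 h at equal list length and Srsf1 at 48 h at a fold of 4 or more. Of 4 with a peak in both 24 h lists, 0 were absent from both 0 h lists, beside 22.4% of protein-coding genes, and of 4 with a peak in both 48 h lists 0 were, beside 24.0%. For a peak in all 4 later lists and neither 0 h list the count was 0 of 2, beside 10.1%. Only 2 to 4 genes could have been called, so these counts carry little, and with a single list taken for a time the count at 24 h was 1 without 24 h list 2, and that at 48 h was 2 without 48 h list 1 and 3 without 48 h list 2. Hnrnpk and Hnrnpu had a peak in all 6 lists, 7.14% of the 28 genes beside 3.32% of protein-coding genes. The median splicing factor gene was in 2 lists and the median protein-coding gene in 1. Of the splicing factor genes 75.0% were in 2 or more lists, beside 48.1% of protein-coding genes.

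**Figure D2:**
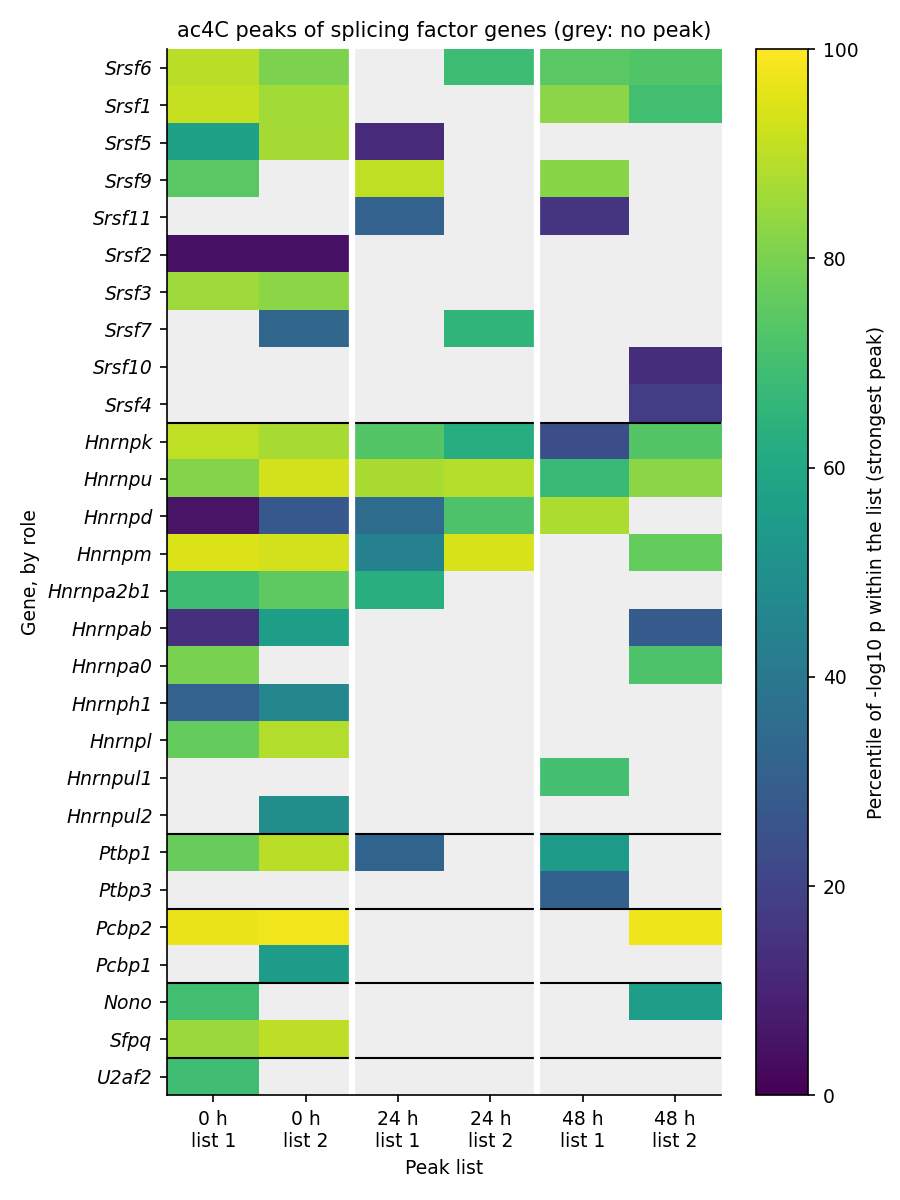
Each row is a splicing factor gene, grouped by role from SR proteins at the top to U2AF at the bottom, and each column a peak list. Colour gives the percentile of −log10 p of the gene's strongest peak among all peaks of that list, and grey marks no peak; Hnrnpk and Hnrnpu are the rows with a peak in all 6 lists, while Sfpq, Hnrnpl, Srsf3, Hnrnph1 and Srsf2 are coloured only in both 0 h columns.

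Of 11 SR protein genes 10 had a peak, and Srsf12 had none. Srsf6 (ENSMUSG00000016921), an SR protein that recognises exonic enhancers, carried a 3′ UTR peak at chr2:162776796-162777054 (GRCm39) in 5 lists. Its fold enrichment was 3.68 and 2.76 in the 0 h lists, 2.59 in 24 h list 2, and 3.31 and 4.11 in the 48 h lists, and it was missing from 24 h list 1. The summits of these 5 peaks lay within 17 bases of each other, 2121 to 2138 bases from the annotated 3′ end of the gene.

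Srsf1 (ENSMUSG00000018379), the founding SR protein, which also guides messenger RNA export, was found in both 0 h and both 48 h lists and in neither 24 h list. Its 3′ UTR peak, at chr11:87941649-87942172, had a fold of 3.88 and 3.45 at 0 h and of 4.42 and 4.21 at 48 h. The −log10 q was 11.6 and 8.14 in the 0 h lists and 4.45 and 2.08 in the 48 h lists. The 4 strongest summits spanned 10 bases. Both 48 h lists shared 4 splicing factor genes, and it was the 1 of them absent at 24 h, beside 24.0% of protein-coding genes, and of the 4 genes shared by both 24 h lists 0 were absent at 48 h, beside 24.5%. These counts depended on single lists: the genes gained between 24 h and 48 h numbered 7 without 48 h list 1, 3 without 48 h list 2 and 2 without 24 h list 2. Those lost numbered 1 without either 48 h list or 24 h list 1, and 2 without 24 h list 2.

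Srsf3 (ENSMUSG00000071172), the smallest SR protein and an adaptor for export, had no peak in the 4 later lists. At 0 h it had a last-exon peak at chr17:29260621-29260940 with folds of 3.36 and 3.35. Its summits, 21 bases apart, held 113 and 91 pull-down fragments over an input coverage of 14 and 12. Srsf2 (ENSMUSG00000034120), known as SC35 in nuclear speckles, likewise had no later peak, and its 0 h peak in the 3′ UTR ranked low in both lists. Its fold was 1.66 and 1.84, with a q of 1 in both, at percentiles of 4.69 and 5.02. The region, chr11:116740862-116741272, also overlaps Mettl23, so the gene of origin is uncertain.

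Srsf5 (ENSMUSG00000021134), an SR protein whose expression responds to growth signals, had a last-exon peak at chr12:80996490-80997160. Its folds were 3.76 and 6.27 at 0 h and 2.28, with a q of 1, in 24 h list 1, and it was in neither 48 h list. The peak of 0 h list 2 was 670 bases wide and held a second summit 393 bases from the first, at a fold of 5.19. Srsf9 (ENSMUSG00000029538) had a 3′ UTR peak at chr5:115470712-115471004 in 1 list of each time, with folds of 3.46 at 0 h, 5.63 at 24 h and 5.41 at 48 h and summits within 25 bases. Srsf7, an adaptor for messenger RNA export, had a 3′ UTR peak in 0 h list 2 and 24 h list 2, at folds of 3.61 and 4.62.

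The other SR genes had their peaks in later lists alone. Srsf11 had a peak in exon 12 in 24 h list 1 and in the 3′ UTR in 48 h list 1, at folds of 2.46 and 2.52. Srsf10, a regulator that represses splicing when dephosphorylated, had a peak in its last intron and Srsf4 one in its last exon, both in 48 h list 2, at folds of 2.84 and 3.35. All 4 of these peaks had a q of 1 and ranked between the 13.2 and 31.3 percentile of their list. The Srsf4 peak also lies on the locus Gm12992. The SR-like genes Tra2a and Tra2b had no peak.

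Of 20 hnRNP genes 11 had a peak, and the 9 without were Hnrnpa1, Hnrnpa3, Hnrnpc, Hnrnpdl, Hnrnpf, Hnrnph2, Hnrnph3, Hnrnpll and Hnrnpr. Hnrnpu (ENSMUSG00000039630), also called scaffold attachment factor A, which binds chromatin-associated RNA, had the most peaks, 12 in all. The region at chr1:178158656-178158994, at the border of intron 9 and exon 10, was present in all 6 lists. Its fold there was 2.40 and 2.22 in the 0 h lists, 3.08 and 3.69 in the 24 h lists and 2.47 and 2.59 in the 48 h lists. The percentile of that peak was 79.2 and 64.6 in the 0 h lists, 87.3 and 88.9 in the 24 h lists and 67.5 and 58.9 in the 48 h lists, each within a list of its own length. A separate 3′ UTR region of Hnrnpu at chr1:178156243-178156535 was found in both 0 h lists, 24 h list 1 and 48 h list 2, at folds of 2.47, 4.22, 2.63 and 4.54.

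Hnrnpk (ENSMUSG00000021546), a KH-domain protein that binds C-rich RNA, had 1 region in all 6 lists, in the 3′ UTR at chr13:58539241-58540151. The fold was 3.55 and 3.50 in the 0 h lists, 3.02 and 2.61 in the 24 h lists and 2.12 and 3.48 in the 48 h lists. Its percentile was 90.6 and 86.9 in the 0 h lists, 73.3 and 62.2 in the 24 h lists and 24.2 and 73.1 in the 48 h lists. The summit lay between 58539990 and 58540008 in both 0 h lists and 48 h list 2, and between 58539735 and 58539771 in both 24 h lists and 48 h list 1. The peaks of the 24 h lists were also the widest, 814 and 656 bases, against 355 and 343 bases at 0 h. At 48 h they were 309 and 335 bases wide.

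Hnrnpm (ENSMUSG00000059208), a splicing regulator that binds G- and U-rich motifs, held the highest fold among these genes. Its 3′ UTR region at chr17:33865256-33865634 had folds of 5.80 and 6.09 at 0 h, 8.89 in 24 h list 2 and 5.69 in 48 h list 2. The summits lay within 8 bases, 226 to 234 bases from the annotated 3′ end. In 24 h list 1 its peak was instead in intron 11, at a fold of 4.30 on 20 fragments, and further peaks lay in exon 10 (0 h list 1) and introns 4 and 5 (24 h list 2 and 0 h list 2). Hnrnpd (ENSMUSG00000000568), known as AUF1, which promotes decay of transcripts with AU-rich elements, had 9 peaks in 5 lists. A region in exon 5, chr5:100112439-100112757, was in both 0 h lists, 24 h list 2 and 48 h list 1, with folds of 2.30, 2.82, 4.40 and 3.46. A region of intron 6 and exon 7, chr5:100111589-100111942, was in both 24 h lists and in neither 48 h list, with folds of 3.89 and 3.88 at 24 h, and it was also in 0 h list 2 at 3.54. The 3′ UTR peak of Hnrnpd, at a fold of 6.70, was in 48 h list 1 alone.

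Hnrnpl (ENSMUSG00000015165), which binds CA repeats, had no peak in the 4 later lists and a last-exon peak at 0 h, at chr7:28521292-28521572. Its folds there were 2.78 and 4.18, on 106 and 96 fragments, with summits 8 bases apart. Hnrnph1 (ENSMUSG00000007850), which binds runs of G, likewise had no later peak. Its last-exon region at 0 h, chr11:50276737-50277167, had folds of 2.84 and 3.43 on 29 and 32 fragments, and 0 h list 1 held a further peak in exon 4. Hnrnpa2b1 (ENSMUSG00000004980), which takes part in RNA transport, had a peak in exon 3, at chr6:51443288-51443687. Its folds were 2.60 and 2.51 at 0 h and 2.86 in 24 h list 1, and it was in neither 48 h list.

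Hnrnpab had a region in exon 2, chr11:51497180-51497638, with no peak at either later time and folds of 2.15 and 3.38 at 0 h, while its 3′ UTR region was in 0 h list 2 and 48 h list 2. Hnrnpa0, which binds AU-rich elements of cytokine transcripts, had a 3′ UTR peak in 0 h list 1 and 48 h list 2 at folds of 4.12 and 4.82, and a last-exon peak at 4.95 in 0 h list 1. Hnrnpul2 had 3 peaks, all in 0 h list 2, at folds of 2.27 to 3.53, of which the exon 11 and 3′ UTR peaks also overlap Gm50139. Hnrnpul1 had 1, in the 3′ UTR in 48 h list 1, at a fold of 4.13.

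Among these genes the highest-ranked peak within any list belonged to Pcbp2 (ENSMUSG00000056851), a poly(C)-binding protein that regulates messenger RNA stability and translation. Its 3′ UTR region, chr15:102406996-102407311, had folds of 3.09 and 4.20 on 330 and 258 fragments at 0 h, no peak at 24 h, and a fold of 3.13 on 394 fragments in 48 h list 2. The −log10 p of these peaks was 30.6 and 37.8 at 0 h and 22.7 in 48 h list 2, and their summits lay within 7 bases. The region also overlaps Map3k12. Its relative Pcbp1 had a 3′ UTR peak in 0 h list 2 alone, at 2.1. Ptbp1 (ENSMUSG00000006498), the polypyrimidine tract-binding repressor of exons, had a 3′ UTR region at chr10:79699633-79700053 that also touches Plppr3 and Gm17134. Its fold was 2.55 and 3.66 at 0 h, 2.21 in 24 h list 1 and 2.76 in 48 h list 1. Ptbp3 had a 3′ UTR peak in 48 h list 1 alone, at 2.37 with a q of 1.

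Sfpq (ENSMUSG00000028820), a core protein of paraspeckles, was absent from the 4 later lists and present in both at 0 h, but no single region carried this pattern. In 0 h list 1 its peaks lay in intron 3 (fold 5.28), exon 5 (3.94) and the last exon (2.44). In 0 h list 2 its peak lay in the 3′ UTR, at chr4:126924135-126924529, at a fold of 5.43 on 79 fragments. Its partner Nono had a 3′ UTR peak in 0 h list 1 and 48 h list 2, at 2.79 and 3.43, and Pspc1 had none. U2af2, the large subunit of the U2 auxiliary factor, which binds the polypyrimidine tract, had a last-exon peak in 0 h list 1 alone, at 3.70, and U2af1 had none.

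The 95 peaks fell into 46 merged regions, of which 23 were seen in 1 list and 13 in 3 or more. Of these 13 regions 8 had all of their strongest summits within 30 bases. Of 16 regions of these genes shared by both 0 h lists, 5 were in no later list, 31.2% beside 33.9% of such regions over all protein-coding genes. They were those of Hnrnph1 (last exon), Hnrnpab (exon 2), Srsf2, Srsf3 and Hnrnpl. So 4 of the 5 genes absent later also lost a shared region, Sfpq being the exception. At the matched input coverage described below, only the regions of Srsf3 and Hnrnpl passed the threshold in both 0 h lists.

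**Figure D3:**
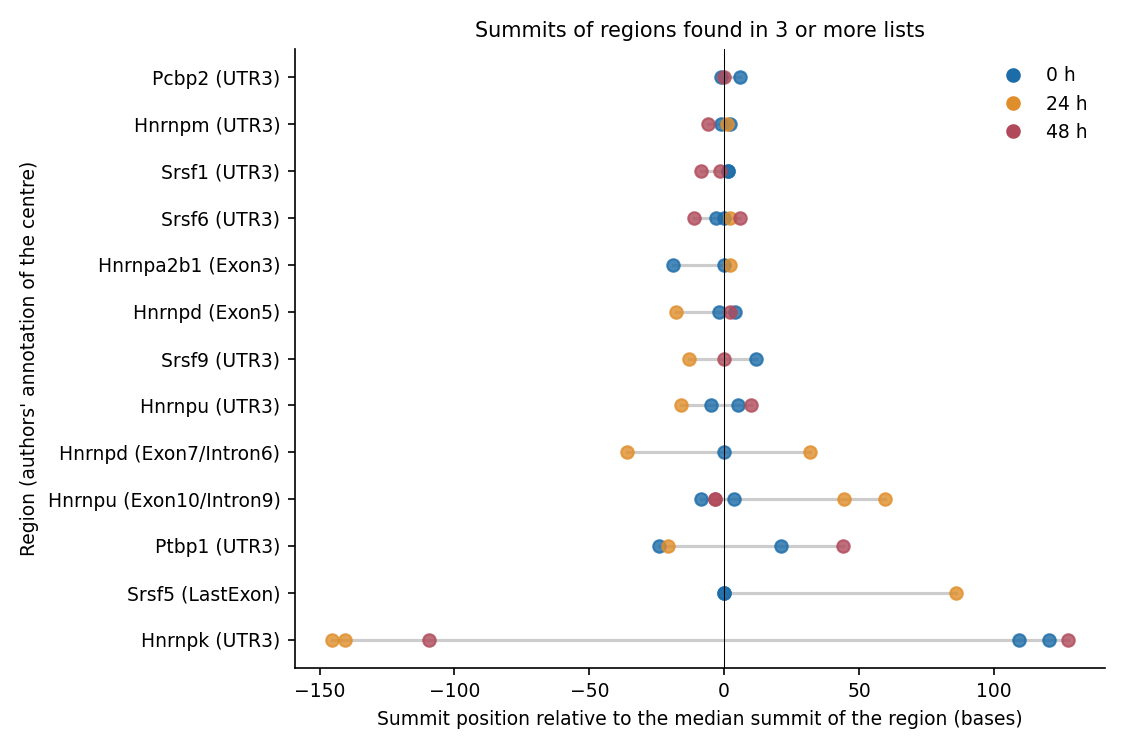
Each row is a merged region of a splicing factor gene found in 3 or more lists, with the authors' annotation of its centre. Points give the summit of the strongest peak of each list in bases from the region's median summit, coloured by time; the rows are sorted by span, from 7 bases for Pcbp2 to 273 bases for Hnrnpk.

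Because the lists differed in input coverage, the p of every peak was also recomputed at the input coverage of the shallowest list, with pull-down fragments scaled by the same ratio. The smallest −log10 p in the lists lay between 2.30 and 2.33, and a p of 0.005 (−log10 p of 2.30) was used as the threshold. Of the 5 genes absent later, Srsf3 then stood at 6.13 and 6.01 in the 0 h lists and Hnrnpl at 4.73 and 7.93. The strongest peak of Sfpq stood at 6.59 and 9.43 and that of Hnrnph1 at 2.65 (its exon 4 peak) and 3.27, all above the threshold. The last-exon peak of Hnrnph1 in 0 h list 1 stood at 2.1, under it. Srsf2 fell under it in both lists, at 1.46 and 1.61. The exon 2 region of Hnrnpab stood at 1.83 in 0 h list 1, under the threshold, and at 2.43 in 0 h list 2. With input matched, the 0 h lists held 17 and 18 splicing factor genes, the 24 h lists 8 and 6, and the 48 h lists 10 and 11. Their share of protein-coding genes was then 2.81% and 3.32% in the 0 h lists, 1.87% in each 24 h list, and 2.23% and 2.38% in the 48 h lists. The later lists still did not overlap with those of 0 h, in number or in share. Whether transcript levels differed between times was not tested.

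**Figure D4:**
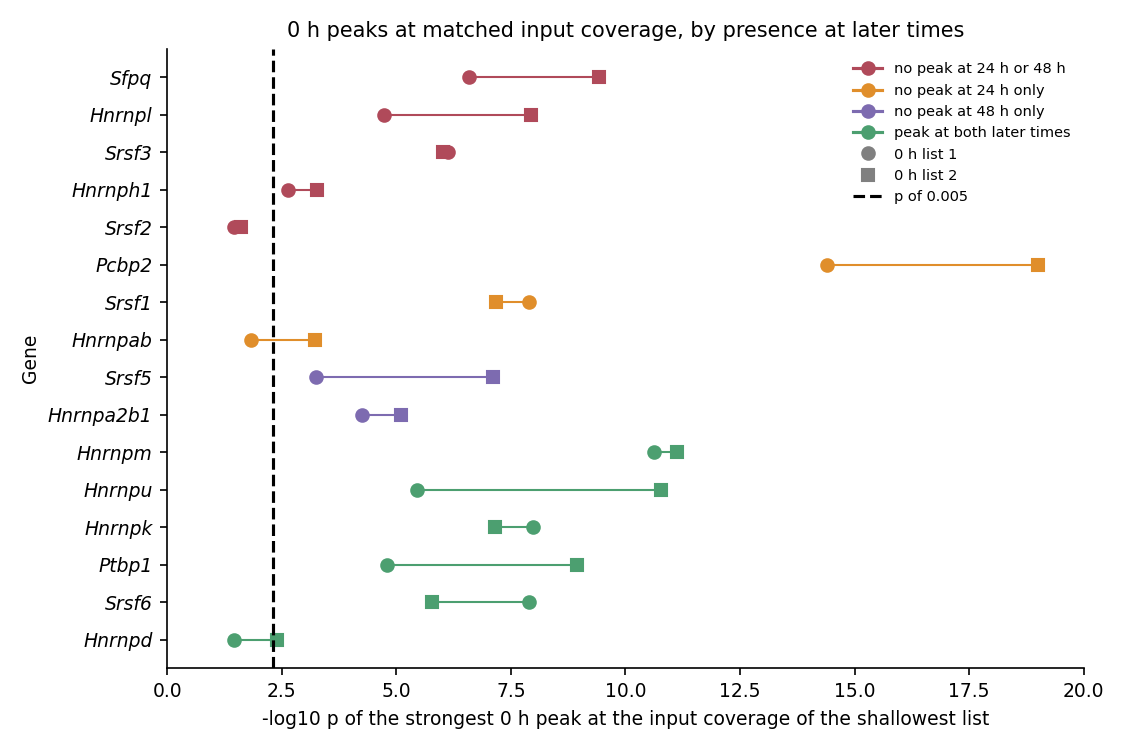
The 16 splicing factor genes shared by both 0 h lists, with the −log10 p of the strongest peak in 0 h list 1 (circle) and 0 h list 2 (square). This p was recomputed from the recovered fragments and input coverage, both scaled to the input coverage of the shallowest list. Colour gives the presence of the gene at later times and the dashed line the threshold. Pcbp2 stood highest, Srsf2 lay under the line in both lists, and Hnrnpab and Hnrnpd had 1 list on each side of it.

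Over all peaks, those of these genes were centred mostly in 3′ UTRs at 48 h and less often so at 0 h and 24 h. The 0 h share was higher with a limit on q, with means of 57.4% at 0.05 or less and 69.7% at 1e-05 or less. In the 0 h lists 12 of 27 and 13 of 26 peaks were centred in a 3′ UTR, in the 24 h lists 4 of 10 and 4 of 8, and in the 48 h lists 9 of 12 and 9 of 12. The mean share was 47.2% ± 3.93 at 0 h, 45.0% ± 7.07 at 24 h and 75.0% ± 0 at 48 h (SD, n = 2 lists each). For the other protein-coding genes it was 61.9% ± 3.94, 47.8% ± 4.54 and 60.9% ± 11.2. Splicing factor genes were thus below the other genes in both 0 h lists, with 44.4% and 50.0% against 64.7% and 59.2%, and above them in both 48 h lists, with 75.0% and 75.0% against 53.0% and 68.9%. At 24 h the order differed between the lists. The share of the other genes was taken over all peaks only, so this order was not tested with a limit on q. Last exons, a separate label at the same end of the transcript, held 7 and 4 of the peaks in the 0 h lists. That was 25.9% and 15.4%, beside 11.8% and 12.8% for the other genes. They held 1 and 0 in the 24 h lists and 0 and 1 in the 48 h lists. No peak of these genes was centred in a 5′ UTR, which held 2.54% to 4.47% of the peaks of the other genes. These shares rest on 8 to 27 peaks per list, and several come from the same transcript.

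**Figure D5:**
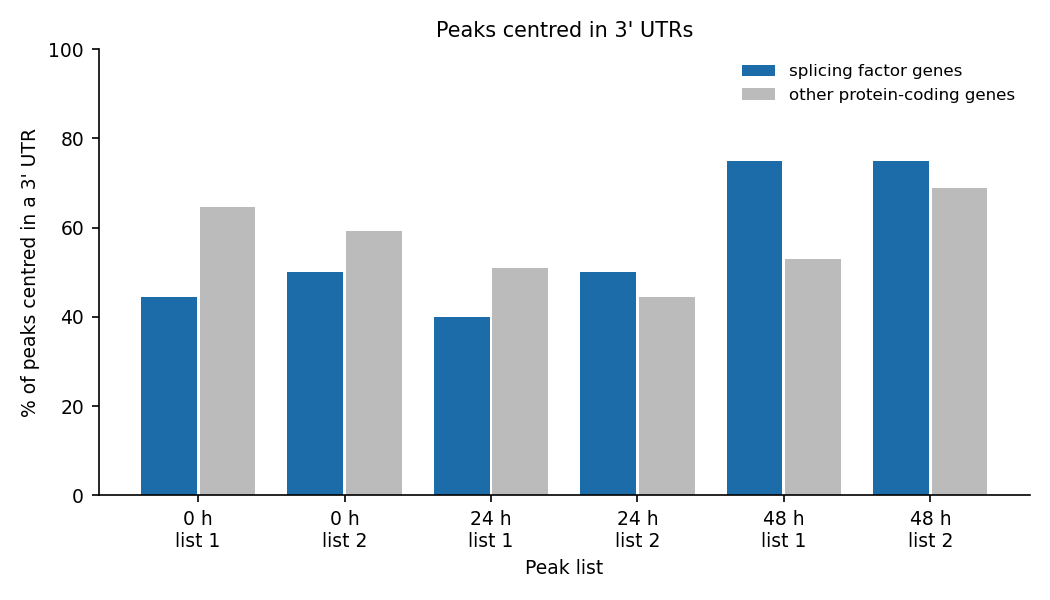
Percentage of peaks centred in a 3′ UTR in each list, for splicing factor genes (blue, left) and other protein-coding genes (grey, right). The splicing factor genes stood at 44.4%, 50.0%, 40%, 50.0%, 75.0% and 75.0% from 0 h list 1 to 48 h list 2.

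The summits of these peaks held more fragments than those of other genes. Their median was 87 and 84 fragments in the 0 h lists, 66 and 48.5 in the 24 h lists and 60 and 61 in the 48 h lists, beside 41 to 47 for the other protein-coding genes. The median percentile of −log10 p was 74.5 and 60.3 in the 0 h lists, 41.9 and 67.2 in the 24 h lists and 61.1 and 70.8 in the 48 h lists, beside 46.8 to 48.8 for the others. It lay above that of the others in 5 of 6 lists, the exception being 24 h list 1. The median fold was 2.94 to 3.79 against 2.93 to 3.35, and it was lower than that of the other genes in 24 h list 1 alone.

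Other splicing genes were taken from lists of the core spliceosome, further regulators and SR protein kinases. Of 56 core spliceosome genes 13 had a peak in any list and none was in both 0 h lists. Sf3b1, the branch-site protein of the U2 particle, was in 5 lists, including both at 24 h and both at 48 h, with its strongest peak in exon 18 at a fold of 7.26. Of 45 other splicing regulators 21 had a peak and 7 had one in both 0 h lists. Of those 7, 2 had none later, beside 27.2% of protein-coding genes. They were Mbnl1 and Tardbp (TDP-43), at best folds of 2.21 and 3.59. Syncrip, a relative of hnRNP R, was absent at 24 h only, as Srsf1 was. With it, 3 of the 7 lacked a peak at 24 h, beside 41.4% of protein-coding genes. Ddx5, an RNA helicase, was gained at 24 h only, a time at which 22.4% of the protein-coding genes in both lists were gained. Rbm25, a regulator of exon choice, and Rbm39, a U2AF-related coactivator, were in 5 lists each, at best folds of 9.97 and 3.35, while Qk and Matr3 were in 4. Of 8 kinases that phosphorylate SR proteins 3 had a peak, Srpk2 in 2 lists and Clk1 and Dyrk1a in 1 each.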

How the data were processed

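The submitters' processing notes name the genome build GRCm39 and the tools MACS2 2.1.0 and BWA 0.7.12, without roles or settings. The deposited tables give, per list, the fold enrichment (a ratio of pull-down over background), and p-value and q-value as −log10, per the file headers, with the authors' gene annotation of each peak's start, centre and end. Coordinates are the authors' as deposited, and the base from which starts are counted is unknown. A peak was 1 region, with the strength of its best summit. Overlapping regions of different lists were merged where they shared at least 1 base. Which genes encode proteins was looked up by symbol in RefSeq's gene table (GRCm38.p6, names only), where 94.7% of 2095 symbols matched. The total RNA samples were not analysed here, no genome sequence was used, and the depth of the libraries is not in the tables.

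Whole numbers of pull-down fragments were recovered from the authors' fold and p with 1 factor per list, within 0.005 of −log10 p or 0.05% of it where that is larger, and 100% of summits matched in each list. Several solutions existed for up to 18.0% of the summits of a list, where the one with input coverage nearest a whole number or the list's background was taken. Lists were also simulated with the same formula, with input coverage at whole numbers or the list's background. There the exact number of fragments was recovered for 97.4% to 100% of summits. Real summits also had other input coverages, so this does not measure the accuracy on these data. Lost meant a peak in both lists of the earlier time and neither of the later, gained the reverse. The members and gene lists were chosen with earlier results of these data known, so counts are descriptions set beside the share over all protein-coding genes, and no test was made over the members. By the rule for named genes, members found in both lists of any time were described in full and the others by their lists and folds. Alternatives were q of 0.05 or less, q of 1e-05 or less, fold of 4 or more, equal list length (611 peaks), matched input coverage, other gene assignments, and each list left out in turn. Python 3.11.15, pandas 2.3.3, numpy 2.4.6, scipy 1.17.1 and matplotlib 3.10.9 were used.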

Additional observations from a re-analysis of the deposited data

How the results depend on the processing

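No paired analysis was possible because the lists carry no sample and no comparison came from a test. At a q of 0.05 or less the genes per list averaged 4.5 at 24 h and 6.5 at 48 h, 1 gene was in all 6 lists, and 3′ UTR shares were 57.4%, 55.0% and 91.7% at 0, 24 and 48 h. At a q of 1e-05 or less the genes per list averaged 10.5, 2 and 1, with 1 lost and 0 gained between 24 h and 48 h and 0 in all 6 lists. The 3′ UTR shares were then 69.7%, 50.0% and 100% at 0, 24 and 48 h. That at 48 h rested on 1 peak per list, of Hnrnpd in list 1 and Pcbp2 in list 2. At a fold of 4 or more the genes per list averaged 4.5, 2.5 and 4.5. There 1 gene was lost at 24 h, 1 at 48 h and 1 at both (Sfpq), 1 was gained at 48 h (Srsf1), 0 were in all 6 lists, and 3′ UTR shares were 58.3% at 24 h and 90.0% at 48 h. At equal list length 1 gene was gained at 24 h (Hnrnpd), and the 3′ UTR share at 0 h was 54.0%. With centres in an exon or UTR these shares were 58.3% at 24 h and 78.4% at 48 h. Leaving out each list in turn gave 0 to 1 genes gained at 24 h, 0 to 3 at 48 h, 0 to 2 lost and 1 to 7 gained between 24 h and 48 h. It also gave 8 to 11 lost at 24 h, 7 to 10 at 48 h and 5 to 7 at both. Matched input coverage and the other overlap rules moved no count by over 1.5 times, but at matched input Srsf5 was called lost at both later times and Srsf2 was not, and Hnrnpab was not called at 24 h. The cause of these shifts was not tested. A q of 1 was given to 25.0% to 45.4% of the peaks of a list, and whether depth sets this share was not tested.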
